A study of Homo sapiens with 12 samples.

Results

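PANC1 cells that had been kept in ICG-001 at 10 uM for 96 h were compared with PANC1 cells kept for the same time in its solvent, DMSO at 0.05%. PANC1 is an established human line from a pancreatic ductal carcinoma, and RNA was read on Illumina HumanHT-12 BeadChips, which report the brightness of labelled RNA bound to probes. The table has 1 row per gene name, and each row gave a log2 ratio of the ICG-001 column over the DMSO column. Rows were kept where the signal was above the detection limit in at least 1 of the 2 columns, which left 17275 of 34687 rows (49.8%). The limit was the most common log2 signal of a column plus the margin below which 99% of a normally distributed background lies, a signal of 137 in both columns.

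The series held 12 columns, 1 for each combination of PANC1 or HCT116 (a colon cancer line), a treatment (DMSO alone, ICG-001, or the acetyltransferase inhibitor C646, each drug at 10 uM) and a time (12 or 96 h). Each was a mean of 2 arrays, apart from PANC1 ICG-001 12 h, a mean of 3 arrays. All cells grew in serum-containing medium, and the cultures of the 96 h arm were passaged during treatment while medium and drug were renewed daily. Both lines come from a single tumour each, and the DMSO columns were the only controls used here. With 1 column per group there is no spread between replicates, so every difference below is a size without an error, and no test was made. Within the comparison, the 273 genes with 2 or more kept rows showed how far 2 readings of a gene lay apart. Both readings came from the same 2 columns, so this is not a spread between cultures. The log2 ratios of 2 rows of such a gene differed by a median of 0.19, and by 0.59 at the 95th percentile. Of 31 of these genes with a row past 1.5-fold, 4 passed the same way in both rows, 22 passed in 1 row with the other row of the same sign, 5 passed in 1 row with the other row of the other sign, and 0 passed in opposite directions. Background was left in the signal, which makes the ratios of dim rows too small, and signals of different genes come from different probes and were not compared with each other.

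ICG-001 binds the coactivator CBP (CREBBP) and blocks its contact with beta-catenin (CTNNB1), the transducer of WNT signals that acts in the nucleus with TCF factors such as TCF7L2. C646 competes with acetyl-CoA at the catalytic site of CBP and of its relative p300 (EP300), and was used in this study for comparison. Cells keep sterol and amino acid supply under feedback control. Low membrane sterol releases the factors SREBF1 and SREBF2 to switch on the genes of sterol and fatty acid synthesis, and shortage of amino acids or stress in the endoplasmic reticulum raises the factor ATF4, which switches on genes of amino acid synthesis, uptake and tRNA charging.

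Markers of the labelled cell type were present. The 6 epithelial and ductal markers KRT7, KRT8, KRT18, KRT19, EPCAM and CDH1 were all above the limit. Of 6 acinar markers and 5 endothelial markers 0 were kept, while 1 of 6 endocrine markers (PPY), 2 of 6 blood markers (CD14 and ITGAM) and 2 of 6 mesenchymal markers (VIM and COL1A1) were. In bulk RNA, fewer cells of a type and less RNA per cell cannot be told apart.

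At 96 h, 667 rows were at least 1.5-fold higher in ICG-001 (3.86% of the kept rows) and 617 were at least 1.5-fold lower (3.57%), 7.43% in all. In the text below, rose and fell refer to a change of at least 1.5-fold, a log2 ratio of 0.58 either way. At least 2-fold, 132 rows rose and 100 fell, and at least 4-fold 11 rose and 0 fell. Ratios ran from -1.95 to 4.04, with a median of -0.0030 and an SD across rows of 0.33. The threshold cuts through a continuous distribution: 696 rows lay between 1.4-fold and 1.5-fold, just outside it, and 425 between 1.5-fold and 1.6-fold, just inside. Of the rows that rose, 14 were under the limit in DMSO, where only a bound can be given, the ICG-001 signal over the limit, and 0 of those that fell were under the limit in ICG-001.

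**Figure D1:**
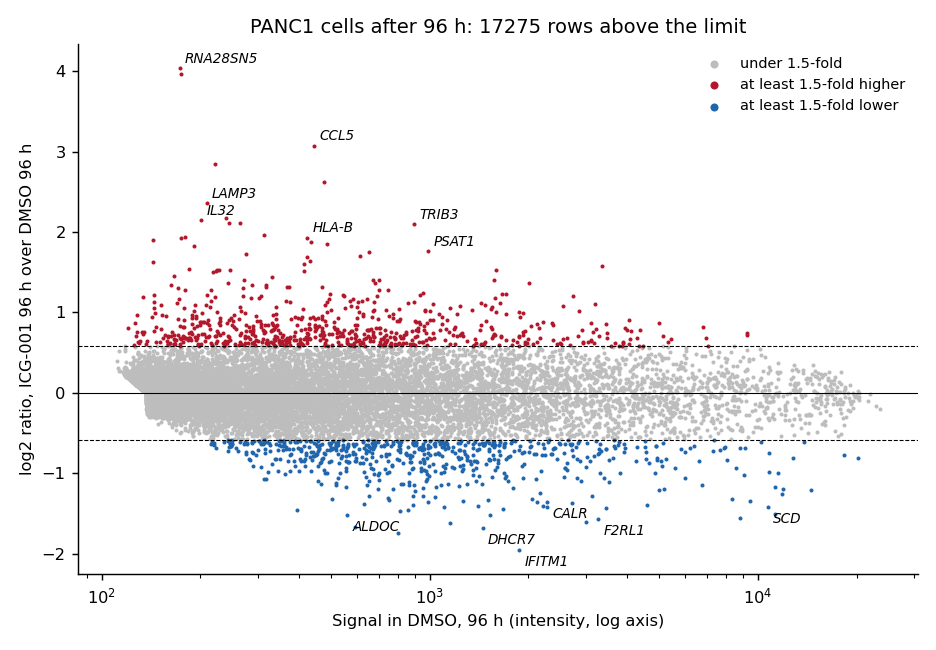
Log2 ratio of ICG-001 over DMSO at 96 h in PANC1 cells against the signal in DMSO on a log axis, 1 point per kept row; dashed lines mark 1.5-fold. The 667 red points lie above and the 617 blue points below these lines, CCL5 is the highest labelled protein-coding gene at 3.07, and IFITM1 is the lowest at -1.95.

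Protein-coding rows made up 12009 of the 17275 kept rows, 542 of the 667 rows that rose and 475 of the 617 that fell. Of the protein-coding rows 4.51% rose and 3.96% fell, beside 3.86% and 3.57% of all kept rows. The 15 rows with the largest rises in this class included genes of immune signalling (CCL5, LAMP3, IL32, SRGN, EBI3 and HLA-B), genes of the amino acid and stress response (both rows of NIBAN1, TRIB3, PSAT1 and GADD45A), and CCM2L, BGN and BEX2. Among the 15 largest falls were genes of sterol and lipid metabolism (DHCR7, INSIG1, SCD, FADS1, MSMO1 and the lipase LIPG), with IFITM1, AGR2, F2RL1, ALDOC, ANXA1, SCNN1A and CALR. The lists below follow these groups and then the remaining parts of the cell's machinery.

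**Figure D2:**
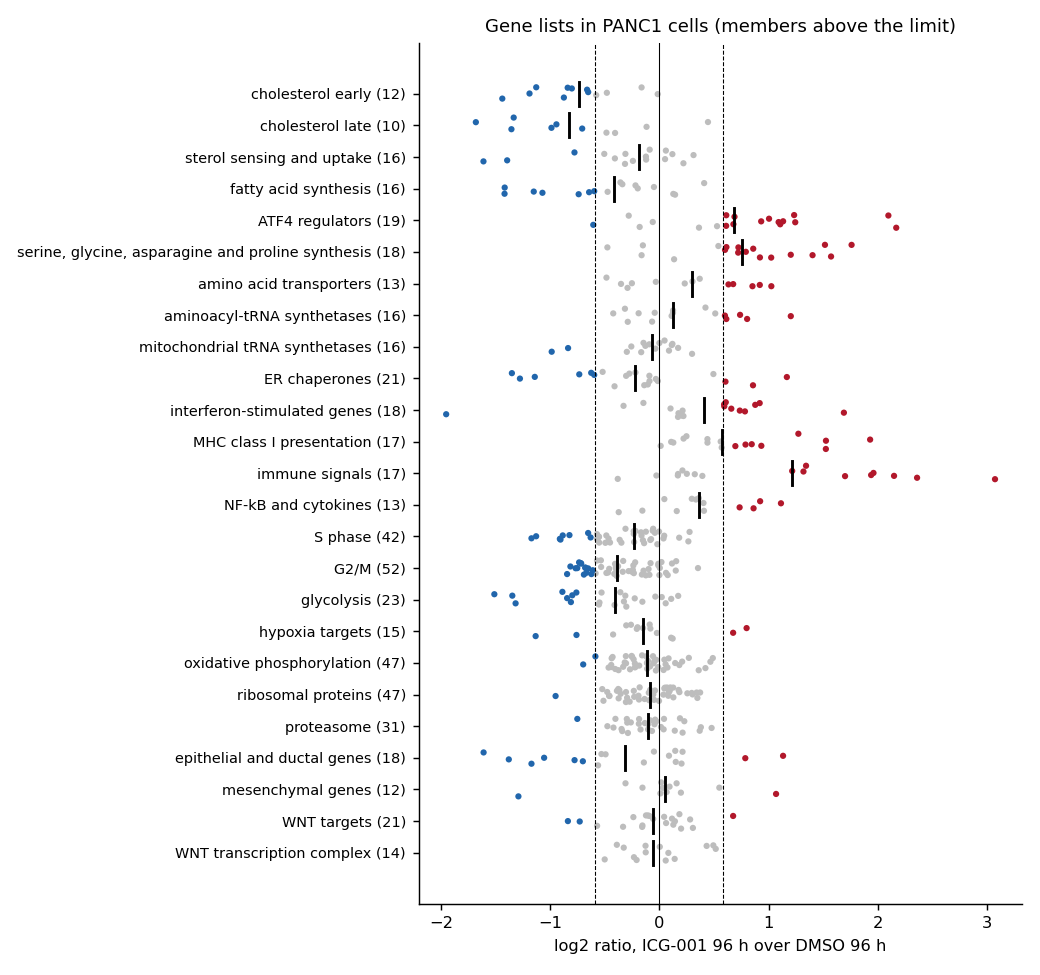
Log2 ratio of ICG-001 over DMSO at 96 h for the members of 25 gene lists above the limit, with their number in parentheses; bars mark medians, dashed lines 1.5-fold, red points rose and blue points fell. The early and late cholesterol lists centre at -0.73 and -0.82, the synthesis enzymes for amino acids at 0.76, and ribosomal proteins at -0.085.

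Most genes of cholesterol synthesis fell. Of 12 genes that lead from acetyl-CoA to lanosterol, all 12 were kept, 8 fell and 0 rose, with a median log2 ratio of -0.73 (all kept rows -0.0030). IDI1, which interconverts the isoprene building blocks, read 817 and 773 in DMSO at 12 and 96 h, 517 and 765 in C646, 443 in ICG-001 at 12 h and 339 in ICG-001 at 96 h, a fall of 2.28-fold. Both ICG-001 columns were below all DMSO and C646 columns for this gene. ACAT2, the thiolase that starts the route, fell by 1.13, FDFT1 (squalene synthase) fell by 0.87, and SQLE, the squalene epoxidase, fell by 0.84 on the log2 scale. The falls of FDPS (-0.80), HMGCS1 (-0.66) and LSS (-0.65), which makes lanosterol, were smaller. All 12 log2 ratios of this list were below 0, the smallest being -0.015. Against DMSO at 12 h, FDFT1, HMGCS1 and LSS were under 1.5-fold, at -0.57, -0.29 and -0.57.

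The late route from lanosterol to cholesterol had 10 kept genes of 10, of which 6 fell and 0 rose, with a median log2 ratio of -0.82. DHCR7, the last reductase of the route, had signals of 1169.9 and 1448 in DMSO at 12 and 96 h, 620.1 and 1232 in C646, 986 in ICG-001 at 12 h and 452 in ICG-001 at 96 h, and its fall of 3.21-fold was the second in size among protein-coding rows. The 96 h ICG-001 signal was the lowest, and the nearest column was C646 at 12 h. MSMO1, the sterol C4 methyl oxidase, read 711 and 987 in DMSO at 12 and 96 h, 623 and 1015 in C646, 574 in ICG-001 at 12 h and 386 in ICG-001 at 96 h. Its fall was 2.56-fold, and again ICG-001 at 96 h was the lowest column. EBP fell by 0.99, CYP51A1 (lanosterol demethylase) fell by 0.94 and SC5D fell by 0.71 on the log2 scale. HSD17B7 was the member above 0, at 0.45, and CYP51A1 was at -0.56 against DMSO at 12 h.

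Of the 22 kept genes on the cholesterol lists, 17 had a RefSeq promoter window, taken as the 250 bases before and 50 bases after a start in GRCh38.p14. The letters CCAAT, the binding motif of NF-Y, were found on either strand in 7 of 8 early genes (87.5%) and 7 of 9 late genes (77.8%), against 43.1% of 9686 protein-coding genes kept in the comparison and 34.6% of all 35116 windows. The sterol response element written as TCACNCCAC was in 0 of these 17 genes and in 1.13% of all windows. With letters this rare, 0 of 17 genes cannot be told from the share of all windows. Other spellings of the element were not searched, so whether these promoters lack it was not tested. Stretches of promoters of 4 genes that fell are shown to place the CCAAT motif in front of the genes, with the motif or its reverse complement in capitals, each 5' to 3' on the strand of the gene, ending before the start.
HMGCS1 (chr5:43313468-43313552, minus strand): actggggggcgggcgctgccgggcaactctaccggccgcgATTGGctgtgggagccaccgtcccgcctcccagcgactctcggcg
IDI1 (chr10:1048971-1049055, minus strand): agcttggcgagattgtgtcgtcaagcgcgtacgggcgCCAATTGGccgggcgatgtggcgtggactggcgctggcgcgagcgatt
MSMO1 (chr4:165327553-165327637, plus strand): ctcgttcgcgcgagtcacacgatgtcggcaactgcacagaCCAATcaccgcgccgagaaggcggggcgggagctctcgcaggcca
DHCR7 (chr11:71448443-71448527, minus strand): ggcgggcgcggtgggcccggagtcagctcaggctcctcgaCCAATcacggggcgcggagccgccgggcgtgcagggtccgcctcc

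Sterol sensing and uptake moved less as a group, with 3 of 16 kept genes falling, 0 rising and a median log2 ratio of -0.18. INSIG1, which holds the sterol sensor SCAP in the endoplasmic reticulum, read 957 and 1153 in DMSO at 12 and 96 h, 737 and 1267 in C646, 750.1 in ICG-001 at 12 h and 378 in ICG-001 at 96 h, a fall of 3.05-fold. Its 96 h ICG-001 signal was at least 1.5-fold below every other PANC1 column. ABCA1, the pump that exports cholesterol, fell by 0.78 and was at -0.19 against DMSO at 12 h. SREBF1 was at -0.50 and SREBF2 at 0.12, both under 1.5-fold.

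Fatty acid synthesis followed the sterol genes in part, with 7 of 16 genes falling, 0 rising and a median log2 ratio of -0.41. SCD, which makes oleate from stearate, had signals of 7494 and 10713 in DMSO at 12 and 96 h, 5541 and 11801 in C646, 6365 in ICG-001 at 12 h and 4010.1 in ICG-001 at 96 h. It fell 2.67-fold, and its DMSO and C646 columns at 96 h were both above their 12 h counterparts. FADS1, the delta-5 desaturase, gave 2386 and 2285 in DMSO at 12 and 96 h, 1081 and 1688 in C646, 1823 in ICG-001 at 12 h and 856 in ICG-001 at 96 h, a fall of 2.67-fold. The C646 column at 12 h was the nearest to it. FASN, the fatty acid synthase, fell by 1.15, FADS2 fell by 1.07 and the elongase ELOVL5 fell by 0.74 on the log2 scale. ACLY and ACSS2, which supply cytosolic acetyl-CoA, fell by 0.64 and by 0.60, and ACSS2 was at -0.27 against DMSO at 12 h.

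Genes of the ATF4 response rose together. Of 20 regulators on the list 19 were kept, 13 rose and 1 fell, with a median log2 ratio of 0.69. TRIB3, a pseudokinase induced by ATF4, read 366 and 895 in DMSO at 12 and 96 h, 539 and 1259 in C646, 2427 in ICG-001 at 12 h and 3832 in ICG-001 at 96 h, a rise of 4.28-fold. Both ICG-001 columns exceeded all others, and DMSO itself was higher at 96 h than at 12 h. NIBAN1, a translation regulator of the stress response, was read by 2 rows. The row kept under its older name C1orf24 gave 211 and 239.7 in DMSO at 12 and 96 h, 184 and 259 in C646, 369.6 in ICG-001 at 12 h and 1079 in ICG-001 at 96 h, and the ratios of its rows were 2.17 and 2.11. NUPR1, a stress-induced chromatin protein, had 217 and 497 in DMSO at 12 and 96 h, 206 and 334 in C646, 859.6 in ICG-001 at 12 h and 1168 in ICG-001 at 96 h, and it rose 2.35-fold. Its order matched TRIB3 in that both ICG-001 columns were highest. STC2 rose by 1.24, DDIT3 (CHOP) by 1.13, DDIT4 by 1.11, CEBPG by 1.09 and CEBPB by 1.00 on the log2 scale. PPP1R15A, the stress-induced phosphatase subunit GADD34, rose by 0.93. ATF3, SESN2, CHAC1 and the kinase EIF2AK4 (GCN2), which senses uncharged tRNA, rose by 0.69, 0.68, 0.61 and 0.61.

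GDF15, a secreted stress hormone, was the 1 member of this list that fell. Its signals were 1427 and 3779.5 in DMSO at 12 and 96 h, 824 and 1893 in C646, 4346 in ICG-001 at 12 h and 2485 in ICG-001 at 96 h. The 96 h ICG-001 signal was above DMSO at 12 h but below DMSO at 96 h, so that GDF15 fell by 0.61 against the matched column and was higher by 0.80 against DMSO at 12 h.

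Enzymes that make serine, glycine, asparagine, proline and related amino acids also rose. All 18 were kept, 13 rose and 0 fell, with a median log2 ratio of 0.76. The serine pathway was led by PSAT1, its transaminase, with 476 and 988 in DMSO at 12 and 96 h, 647 and 1065 in C646, 1676 in ICG-001 at 12 h and 3348 in ICG-001 at 96 h, a rise of 3.39-fold. PHGDH, which commits carbon from glycolysis to serine, gave 1252 and 3339 in DMSO at 12 and 96 h, 2209 and 4076 in C646, 4332 in ICG-001 at 12 h and 9935 in ICG-001 at 96 h and rose 2.97-fold. In both genes ICG-001 at 96 h was the highest column and ICG-001 at 12 h came next, while DMSO and C646 were each higher at 96 h than at 12 h. PSPH, the final phosphatase, rose by 0.60. ASNS, asparagine synthetase, read 836 and 2119 in DMSO at 12 and 96 h, 1246 and 2609 in C646, 3035 in ICG-001 at 12 h and 3846 in ICG-001 at 96 h, a rise of 1.82-fold. GPT2 and GOT1, transaminases for alanine and aspartate, rose by 1.52 and 1.2, and PYCR1, for proline, rose by 0.92. The mitochondrial folate enzymes MTHFD1L, MTHFD2 and SHMT2 rose by 1.02, 0.72 and 0.61. CBS and CTH, which convert homocysteine to cysteine, rose by 1.4 and 0.72, and ASS1, of arginine synthesis, rose by 0.79. Against DMSO at 12 h PYCR1 was under 1.5-fold, at 0.55.

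Transporters and tRNA charging rose in part. Of 18 amino acid transporters 13 were kept, 5 rose and 0 fell, with a median log2 ratio of 0.30. SLC7A5 and SLC3A2, the chains of the LAT1 exchanger for large neutral amino acids, rose by 0.85 and 0.92. SLC7A1, for cationic amino acids, rose by 1.03, SLC6A9, for glycine, by 0.68 and SLC1A4, for alanine and serine, by 0.63. Among cytosolic aminoacyl-tRNA synthetases 16 of 20 had a unique row and were kept, 5 rose, 0 fell and the median was 0.13. WARS1, the tryptophan enzyme and also an interferon-induced gene, rose most and read 693 in DMSO and 1597 in ICG-001 at 96 h, a log2 ratio of 1.2. EPRS1, NARS1, YARS1 and CARS1 rose by 0.80, 0.74, 0.61 and 0.60. Of 16 kept mitochondrial synthetases 0 rose (all kept rows 3.86%), and 2 fell (all kept rows 3.57%), EARS2 (-0.99) and SARS2 (-0.84, and -0.48 against DMSO at 12 h). So few genes cannot be compared closely with such shares.

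The C/EBP-ATF response element, written TGATGNAA and read on both strands, is the motif that ATF4 binds with C/EBP partners. It was found in the promoter windows of 4 of 18 ATF4 regulators (22.2%), 3 of 11 synthesis enzymes (27.3%), 5 of 12 transporters (41.7%) and 5 of 12 cytosolic synthetases (41.7%) with an entry, against 2.77% of the protein-coding genes kept and 3.62% of all windows. A stretch upstream of the start is given for each of the 6 genes on these lists that rose and held the motif there, with the motif in capitals.
CEBPG (chr19:33374031-33374112, plus strand): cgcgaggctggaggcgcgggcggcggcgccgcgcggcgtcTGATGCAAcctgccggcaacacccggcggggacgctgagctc
ATF3 (chr1:212565176-212565263, plus strand): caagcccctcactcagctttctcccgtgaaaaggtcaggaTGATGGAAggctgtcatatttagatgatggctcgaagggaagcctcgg
CHAC1 (chr15:40953222-40953309, plus strand): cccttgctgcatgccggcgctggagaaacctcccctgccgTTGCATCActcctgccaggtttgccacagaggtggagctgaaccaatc
ASNS (chr7:97872429-97872516, minus strand): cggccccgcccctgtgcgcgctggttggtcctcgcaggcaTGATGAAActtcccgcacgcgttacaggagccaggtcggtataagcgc
GOT1 (chr10:99430775-99430862, minus strand): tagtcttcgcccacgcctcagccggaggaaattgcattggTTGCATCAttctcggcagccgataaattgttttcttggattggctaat
MTHFD1L (chr6:150866317-150866404, plus strand): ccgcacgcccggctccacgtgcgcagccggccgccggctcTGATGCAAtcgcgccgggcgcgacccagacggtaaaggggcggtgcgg
The motif was also upstream of AARS1 (0.42), IARS1 (0.51), SLC1A5 (0.37) and PPP1R15B (-0.18), which were under 1.5-fold.

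Genes of the endoplasmic reticulum were split. Of 21 kept chaperones and folding factors, 6 fell and 3 rose, and the median log2 ratio was -0.22. CALR, the calcium-binding lectin chaperone calreticulin, read 3233 and 2270.1 in DMSO at 12 and 96 h, 1589 and 1454 in C646, 2187 in ICG-001 at 12 h and 890.3 in ICG-001 at 96 h, a fall of 2.55-fold. ICG-001 at 96 h was the lowest column, and both C646 columns were below DMSO of the same time. Its membrane-bound partner CANX fell by 1.28, PDIA4 by 1.14, HYOU1 by 0.73, SDF2L1 by 0.62 and MANF by 0.60, MANF being at -0.50 against DMSO at 12 h. HERPUD1, of the degradation route, rose by 1.17, the sensor ATF6 by 0.86 and HSPA5 (BiP), the main luminal chaperone, by 0.61. Heat shock chaperones held 13 kept genes, of which 0 passed 1.5-fold either way (all kept rows 7.43%), and HSPB1 came nearest at 0.47.

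Immune signals included the largest rise of any protein-coding row. The list of chemokines, cytokines and RNA sensors was written after the values had been seen, so its counts only describe these genes: 17 of 24 were kept, 9 rose and 0 fell, and the median log2 ratio was 1.22. CCL5, a chemokine that attracts T cells and is induced by NF-kB and interferon regulatory factors, had signals of 399.7 and 444 in DMSO at 12 and 96 h, 615 and 952 in C646, 464 in ICG-001 at 12 h and 3740.2 in ICG-001 at 96 h. ICG-001 at 96 h was 8.42-fold above its DMSO column, and C646 at 96 h was the second highest. IL32, an inflammatory cytokine, read 232 and 201 in DMSO at 12 and 96 h, 193 and 197 in C646, 267 in ICG-001 at 12 h and 892 in ICG-001 at 96 h, a rise of 4.44-fold. The other 5 columns of IL32 lay between 193 and 267. LAMP3, a lysosomal membrane protein of mature dendritic cells, gave 172 and 209 in DMSO at 12 and 96 h, 172 and 233 in C646, 236 in ICG-001 at 12 h and 1074 in ICG-001 at 96 h and rose 5.14-fold. EBI3, a subunit of interleukin 27, had 258 and 179 in DMSO at 12 and 96 h, 217 and 256 in C646, 275 in ICG-001 at 12 h and 688 in ICG-001 at 96 h, a rise of 3.84-fold. SRGN, the core protein of secretory granule proteoglycans, rose by 1.96, CX3CL1 (fractalkine) by 1.70, the double-stranded RNA sensor IFIH1 (MDA5) by 1.34, TNIP1 by 1.32 and IRAK2 by 1.22. Markers of blood cells did not move with these genes: PTPRC, CD3E and HBB were not kept, and CD14 and ITGAM were at -0.23 and -0.0012.

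Genes of antigen presentation were also higher. The list of MHC class I presentation, also written after the values had been seen, held 17 kept genes of 18, of which 8 rose and 0 fell, with all 17 log2 ratios above 0 and a median of 0.57. HLA-B, a class I heavy chain, read 584 and 424 in DMSO at 12 and 96 h, 591 and 628 in C646, 611 in ICG-001 at 12 h and 1616 in ICG-001 at 96 h, a rise of 3.81-fold. HLA-C rose by 0.93 and HLA-F by 0.70. Class I genes are near-identical over much of their length, so a probe may read more than 1 of them. TAP1, a subunit of the peptide transporter of the endoplasmic reticulum, gave 1891 and 1597 in DMSO at 12 and 96 h, 2077 and 2156 in C646, 2324 in ICG-001 at 12 h and 4601 in ICG-001 at 96 h and rose 2.88-fold. PSMB8 and PSMB9, subunits of the immunoproteasome, rose by 1.53 and 1.27, PSME2, of its activator, by 0.79, and 1 of the 2 rows of the trimming peptidase ERAP2 by 0.85, the other row being at -0.16. For 16 of the 17 genes ICG-001 at 96 h was the highest of the 6 columns (all kept rows 25.6%). The list was written after these values were seen, so this count only describes its genes.

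Interferon-stimulated genes held 18 kept of 22, with 9 rising, 1 falling and a median log2 ratio of 0.41. IRF1, the factor that drives class I and immunoproteasome genes, had 217 and 422 in DMSO at 12 and 96 h, 473 and 613 in C646, 736 in ICG-001 at 12 h and 1363 in ICG-001 at 96 h, a rise of 3.23-fold, with ICG-001 at 12 h next. ISG20 rose by 0.92, IFIT3 by 0.88, IFIT2 by 0.78, IFI35 by 0.74, MX1 by 0.66, ISG15 by 0.61, IRF9 by 0.60 and IFI6 by 0.59. IFITM1, a membrane protein that blocks virus entry, went the other way with the largest fall of all kept rows. Its signals were 643 and 1868 in DMSO at 12 and 96 h, 627 and 948 in C646, 634 in ICG-001 at 12 h and 483 in ICG-001 at 96 h. Here the DMSO column at 96 h stood above every other column, and against DMSO at 12 h ICG-001 at 96 h was lower by a log2 ratio of -0.41 only. Against DMSO at 12 h, IFIT2, IFIT3 and ISG15 were under 1.5-fold, at 0.48, 0.50 and 0.52. NF-kB targets held 13 kept of 19, with 4 rising, 0 falling and a median of 0.36: BIRC3 rose by 1.11, the adhesion molecule ICAM1 by 0.92 (0.44 against DMSO at 12 h), the inhibitor NFKBIA by 0.86 and NFKB1 by 0.74.

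Genes of DNA replication and mitosis were lower. Of 42 kept S phase genes 8 fell and 0 rose, with a median log2 ratio of -0.23. MCM5, a subunit of the replicative helicase, read 946 and 828 in DMSO at 12 and 96 h, 701 and 652 in C646, 747 in ICG-001 at 12 h and 379 in ICG-001 at 96 h, a fall of 2.19-fold. UHRF1, which takes part in copying DNA methylation to new strands, had 1137 and 1046 in DMSO at 12 and 96 h, 928 and 831 in C646, 779 in ICG-001 at 12 h and 465 in ICG-001 at 96 h and fell 2.25-fold. In both genes ICG-001 at 96 h was the lowest column, and the other 5 lay between 652 and 946 for MCM5 and between 779 and 1137 for UHRF1. ATAD2, RRM2, MCM4, GMNN, GINS2 and UNG had log2 ratios of -0.91, -0.91, -0.88, -0.82, -0.65 and -0.63. A second row of UNG was at -0.032. The thymidine kinase TK1 fell by 1.03, and TK1 and RRM2 were the 2 of 20 nucleotide synthesis genes that passed 1.5-fold.

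G2/M genes held 52 kept of 54, of which 14 fell and 0 rose, and the median log2 ratio was -0.38. The 96 h ICG-001 signal was the lowest of the 6 columns in 36 of the 52 (all kept rows 23.6%). TPX2, which activates Aurora A on the spindle, read 4471 and 2877 in DMSO at 12 and 96 h, 2320.0 and 2001 in C646, 3327 in ICG-001 at 12 h and 1602 in ICG-001 at 96 h. It fell 1.80-fold, and its highest column was DMSO at 12 h. The kinetochore motor CENPE had 872 in DMSO and 496 in ICG-001 at 96 h, a log2 ratio of -0.81. KIF20B, TACC3, BUB1, CENPF and TTK followed at -0.77, -0.75, -0.73, -0.72 and -0.72, and NUF2, NUSAP1, TOP2A, KIF11, TUBB4B, ANLN and DLGAP5 lay between -0.69 and -0.61. A second row of NUF2 was at 0.023. CENPF was at -0.58 against DMSO at 12 h. Among 19 kept cyclins and cyclin-dependent kinases, CCNB1 fell by 0.97, CCNA2 by 0.78, and CCND2, under the limit in DMSO at 96 h, rose at least 1.84-fold. On the list of inhibitors of these kinases and pocket proteins, 0 of 8 kept genes passed 1.5-fold (all kept rows 7.43%). CDKN1A (p21) read 551 and 857 in DMSO at 12 and 96 h, 1006 and 1007 in C646, 651 in ICG-001 at 12 h and 928 in ICG-001 at 96 h and had a log2 ratio of 0.12.

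The cell cycle homology region, written TTTGAA, marks many promoters of mitotic genes. It was found on either strand in 31 of 43 G2/M genes with a promoter window (72.1%), against 13.5% of protein-coding genes kept and 15.2% of all windows, and CCAAT was in 30 of these 43 (69.8%). The E2F motif written TTTNNCGC was in 18 of 32 S phase genes (56.2%) and 5 of 43 G2/M genes (11.6%), against 13.0% of protein-coding genes kept. Genes with TTTGAA included members under 1.5-fold on either side of 0, such as CKS1B (0.35), CDC20 (0.15), MKI67 (-0.24) and CCNB2 (-0.57). Upstream stretches of 4 mitotic genes that fell are shown with each match to TTTGAA or its reverse complement in capitals.
TOP2A (chr17:40418002-40418087, minus strand): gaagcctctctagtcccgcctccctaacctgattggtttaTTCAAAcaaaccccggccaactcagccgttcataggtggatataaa
KIF11 (chr10:92593062-92593129, plus strand): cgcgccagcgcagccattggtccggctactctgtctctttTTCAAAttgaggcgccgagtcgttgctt
DLGAP5 (chr14:55191649-55191734, minus strand): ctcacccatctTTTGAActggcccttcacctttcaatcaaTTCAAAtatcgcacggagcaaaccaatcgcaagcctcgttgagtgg
ANLN (chr7:36389802-36389861, plus strand): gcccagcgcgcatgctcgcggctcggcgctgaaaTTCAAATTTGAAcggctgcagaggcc

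Glycolysis genes were lower, with 8 of 23 falling, 0 rising and a median log2 ratio of -0.41. ALDOC, an aldolase, read 208 and 561 in DMSO at 12 and 96 h, 297 and 424 in C646, 233 in ICG-001 at 12 h and 197 in ICG-001 at 96 h. The DMSO column at 96 h was far above DMSO at 12 h, so the fall of 2.85-fold became a log2 ratio of -0.081 against DMSO at 12 h. SLC16A3, the lactate exporter MCT4, fell by 1.35, the regulator PFKFB4 by 1.32 and the glucose transporter SLC2A1 by 0.76. Against DMSO at 12 h PFKFB4 was at -0.18 and SLC2A1 at -0.39, both under 1.5-fold. GPI, TPI1, LDHA and PKM, enzymes of the main route, had log2 ratios of -0.89, -0.84, -0.81 and -0.80. LDHA, which makes lactate, showed 12505 and 12790.3 in DMSO at 12 and 96 h, 10787 and 10471 in C646, 9314 in ICG-001 at 12 h and 7296 in ICG-001 at 96 h, with ICG-001 at 96 h lowest. Other targets of hypoxia-inducible factors were mixed, with 2 of 15 rising (P4HA2 at 0.80 and VEGFA at 0.68) and 2 falling (ANGPTL4 at -1.13 and P4HA1 at -0.76). Their median was -0.15, and DMSO at 96 h was above DMSO at 12 h by a median of 0.31 on this list. ANGPTL4 and P4HA1 were at -0.080 and -0.32 against DMSO at 12 h, and the median of the list turned to 0.17.

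Over all kept rows 3.86% rose and 3.57% fell, and the lists of large complexes are too short to compare closely with such shares. Of 47 kept subunits of oxidative phosphorylation 2 fell, ATP5F1C (-0.70) and UQCRC2 (-0.59), and 0 rose, with a median of -0.11. Of 47 kept ribosomal proteins on a list of 48, RPS23 fell by 0.95 and 0 rose, with a median of -0.085. Outside this partial list, RPL36A, RPL29, RPL13A and RPL23A fell too, at -0.85, -0.76, -0.75 and -0.65, and RPS4X was at 0.46. Ribosomal protein genes outside the list were not counted. Of 31 proteasome subunits PSMA2 fell by 0.75 and 0 rose, with a median of -0.10. Of 14 kept histone genes H2AX fell by 1.09 and 0 rose, with a median of -0.25.

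Epithelial and ductal genes changed in both directions, with 6 of 18 falling, 2 rising and a median log2 ratio of -0.32. AGR2, a disulfide isomerase needed for mucin secretion, read 3293 and 2995 in DMSO at 12 and 96 h, 2258 and 2169 in C646, 2062 in ICG-001 at 12 h and 982 in ICG-001 at 96 h, a fall of 3.05-fold. The 96 h ICG-001 signal was at least 1.5-fold under every other column. KRT19, the keratin of ductal epithelium, had 11325 and 11273 in DMSO at 12 and 96 h, 11062 and 11748 in C646, 7857 in ICG-001 at 12 h and 5006 in ICG-001 at 96 h and fell 2.25-fold, and KRT8 fell by 1.06. EPCAM fell by 0.78 and TFF3, a mucosal peptide, by 0.70 (-0.26 against DMSO at 12 h). SCNN1A, a sodium channel subunit, fell 2.60-fold against DMSO at 96 h and had a log2 ratio of -0.32 against DMSO at 12 h. CLDN1, of tight junctions, rose by 1.13 and MUC1 by 0.79. F2RL1, a protease-activated receptor, and ANXA1, an annexin, were outside these lists and fell 2.97-fold and 2.70-fold, with ICG-001 at 96 h at least 1.5-fold below the other 5 columns in both. Among 12 kept mesenchymal genes THBS1 rose by 1.07, SPARC fell by 1.29 (-0.46 against DMSO at 12 h), and VIM was at -0.31. The proteoglycan BGN, read at 174 in DMSO and 662 in ICG-001 at 96 h, rose 3.80-fold. The IGF axis had 2 of 11 falling, IGFBP4 (-1.28) and IGFBP2 (-0.66).

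The question behind ICG-001 concerns WNT signalling, and the medians of the 2 lists of WNT genes were near that of all kept rows (-0.0030). Of 30 targets and feedback genes of beta-catenin 21 were kept, 1 rose (VEGFA) and 2 fell, with a median log2 ratio of -0.056. Of all kept rows, 3.86% rose and 3.57% fell, and 21 genes are too few to compare such shares closely. FOSL1, an AP-1 subunit, read 1924 and 1527 in DMSO at 12 and 96 h, 808 and 619 in C646, 1470.4 in ICG-001 at 12 h and 855 in ICG-001 at 96 h, a fall of 1.79-fold, and both C646 columns were lower still. DKK1, a secreted WNT antagonist, gave 5080.4 and 6006 in DMSO at 12 and 96 h, 4525 and 4618 in C646, 5263 in ICG-001 at 12 h and 3623 in ICG-001 at 96 h and fell 1.66-fold, with a log2 ratio of -0.49 against DMSO at 12 h. MYC, a growth factor-responsive transcription factor, had 1045 and 1272 in DMSO at 12 and 96 h, 1375 and 1343 in C646, 1507 in ICG-001 at 12 h and 1445 in ICG-001 at 96 h, a log2 ratio of 0.18. CCND1 (cyclin D1) was at 0.28 and BIRC5 (survivin) at 0.12. Of the 14 kept members of the WNT transcription complex 0 passed 1.5-fold (all kept rows 7.43%), again too few genes to compare closely. CREBBP, the drug's target, read 548 and 599 in DMSO at 12 and 96 h, 633 and 610.0 in C646, 727 in ICG-001 at 12 h and 857 in ICG-001 at 96 h, a log2 ratio of 0.52, and both ICG-001 columns were above the others. EP300 was at -0.13, CTNNB1 at 0.058 and TCF7L2 at -0.33, and in these 3 genes no PANC1 column read above 362.

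Early response genes included 19 kept, with ETV5 rising by 0.70 and 3 falling, FOSL1, EGR1 (-0.83) and IER3 (-0.69). Against DMSO at 12 h EGR1 was at -0.28 and IER3 at -0.047. JUN, the partner of FOS in AP-1, had 1034 and 1459.8 in DMSO at 12 and 96 h, 899 and 835 in C646, 1638 in ICG-001 at 12 h and 1309 in ICG-001 at 96 h. Its log2 ratio was -0.16, and it turned to 0.34 against DMSO at 12 h. Among EGF receptors and ligands 1 of 6 kept genes passed, with HBEGF rising by 0.76. Among TGF-beta and YAP genes 1 of 17 passed, with CCN2 (CTGF) rising by 0.86.

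Protective and clearance genes gave a few further changes. NRF2 targets had 3 of 17 rising, the sulfiredoxin SRXN1 (0.90), PIR (0.69) and the ferritin chain FTH1 (0.67), and PGD of the pentose phosphate route fell by 0.68, with a median of 0.30. Metallothioneins had 2 of 8 rising, MT1M (1.52) and MT1E (0.59, and 0.18 against DMSO at 12 h); these are near-identical genes and their probes may read more than 1 of them. In autophagy 4 of 19 rose: ULK1, the initiating kinase, by 1.2, SQSTM1 (p62) by 0.72, CTSL by 0.66 and GABARAPL1 by 0.65. Of 16 kept p53 targets PMAIP1 (NOXA) rose by 0.90 and SFN (14-3-3 sigma) fell by 0.81. Of 18 kept cell death genes BIRC3 and PMAIP1 rose. GADD45A, a damage-inducible gene outside these lists, read 637 and 654 in DMSO at 12 and 96 h, 898 and 1055 in C646, 1121 in ICG-001 at 12 h and 2202 in ICG-001 at 96 h and rose 3.37-fold.

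**Figure D3:**
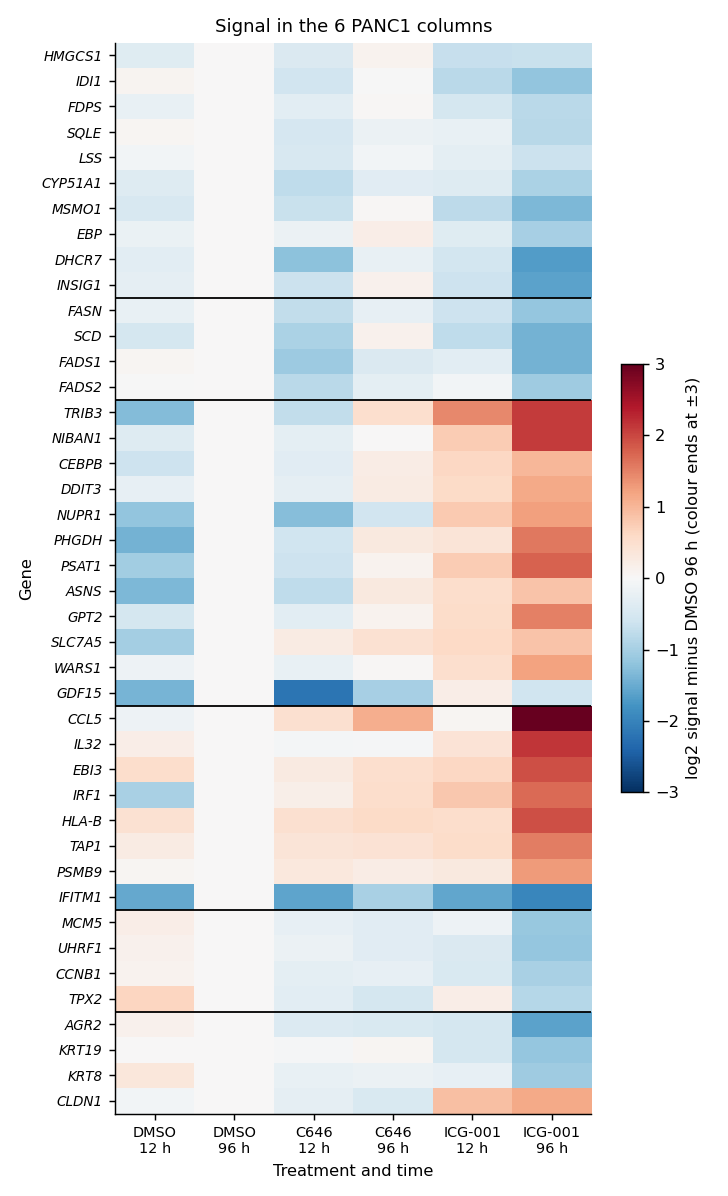
Log2 signal of 42 genes in the 6 PANC1 columns, each minus its value in DMSO at 96 h, on a colour scale that ends at 3 either way. The right-hand column, ICG-001 at 96 h, is a deeper blue than the others for most sterol genes (DHCR7 at -1.68) and reddest for CCL5 (3.07), while IFITM1 and GDF15 are blue in most columns where DMSO at 96 h was the reference and read high.

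A ratio rests on the DMSO column as much as on the ICG-001 column, so each row was also placed among all 6 PANC1 columns. Over 19307 rows above the limit in any of them, ICG-001 at 96 h was at least 1.5-fold above the highest other column in 179 (0.927%) and at least 1.5-fold below the lowest in 88 (0.456%). The same counts for the other 5 columns were 9 and 41 for DMSO 12 h, 2 and 1 for DMSO 96 h, 2 and 0 for ICG-001 12 h, 0 and 1 for C646 12 h, and 5 and 5 for C646 96 h. Of the 667 rows that rose, ICG-001 at 96 h was the highest column in 590 (88.5%; all kept rows 25.6%), and 555 (83.2%) were also at least 1.5-fold above DMSO at 12 h (rows tested there 6.58%). Of the 617 that fell, it was the lowest column in 561 (90.9%; all kept rows 23.6%), and 464 (75.2%; rows tested 5.32%) passed against DMSO at 12 h. These rows were chosen on the same ICG-001 column, so the choice itself raises these shares, and they only describe the rows. Of 199 genes past 1.5-fold that the text names, 167 stayed past it in the same direction with DMSO at 12 h as the control.

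C646 at 96 h shares its DMSO column with ICG-001, so the values are given side by side without a measure of overlap. For the early cholesterol list the medians were -0.73 with ICG-001 and -0.070 with C646, and for the late list -0.82 and 0.14. The ATF4 regulators had medians of 0.69 and -0.075, the synthesis enzymes 0.76 and -0.0027, MHC class I presentation 0.57 and 0.089, and G2/M -0.38 and -0.14. INSIG1 was at -1.61 with ICG-001 and 0.14 with C646, HSD17B7 at 0.45 and 1.45, and PSAT1 at 1.76 and 0.11. Other values, with ICG-001 first, were CCL5 (3.07 and 1.10), FOSL1 (-0.84 and -1.30), IGFBP4 (-1.28 and -1.90) and CALR (-1.35 and -0.64). Measured directly against C646 at 96 h, 355 of the 667 rows (53.2%) and 235 of the 617 rows (38.1%) were at least 1.5-fold apart in the same direction, with 3.37% of tested rows higher and 3.53% lower in that comparison. The same ICG-001 column enters both sides, so these shares too are only a description.

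At 12 h, in separate columns, ICG-001 gave a smaller and mostly upward response: 376 rows rose (2.17%) and 58 fell (0.335%). Of the rows that rose at 96 h, 164 had risen at 12 h, 24.6% of the 96 h list and 43.6% of the 12 h list. Of those that fell, 44 had fallen at 12 h, 7.13% and 75.9% of the lists. The sign at 12 h was the same for 88.6% of the rows that rose and 90.6% of those that fell. The same share over all rows kept at both times was not counted, so these 2 shares only describe the rows. Across 16053 rows kept at both times Pearson's r was 0.59 and Spearman's rho 0.54, where rows are not independent and share the probes and the normalization. The ATF4 regulators had medians of 0.82 at 12 h and 0.69 at 96 h, and ASNS was at 1.86 and then 0.86, NUPR1 at 1.99 and 1.23, TRIB3 at 2.73 and 2.10. The cholesterol lists had medians of -0.28 (early) and -0.16 (late) at 12 h, before -0.73 and -0.82. MHC class I presentation had a median of 0.048 at 12 h with 0 genes past 1.5-fold, and CCL5, IL32 and HLA-B were at 0.22, 0.20 and 0.064. Other immune lists already held genes that had risen at 12 h, and 0 that had fallen. These were 4 immune signals, 2 NF-kB targets and 1 interferon-stimulated gene, IRF1. The medians of these lists at 12 h were 0.15, 0.12 and 0.13. ICG-001 at 12 h and 96 h went past 1.5-fold in opposite directions in 3 rows, GDF15, IER3 and ANGPTL4, which rose at 12 h (1.61, 0.70 and 0.67) and fell at 96 h. The difference between times was not tested.

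**Figure D4:**
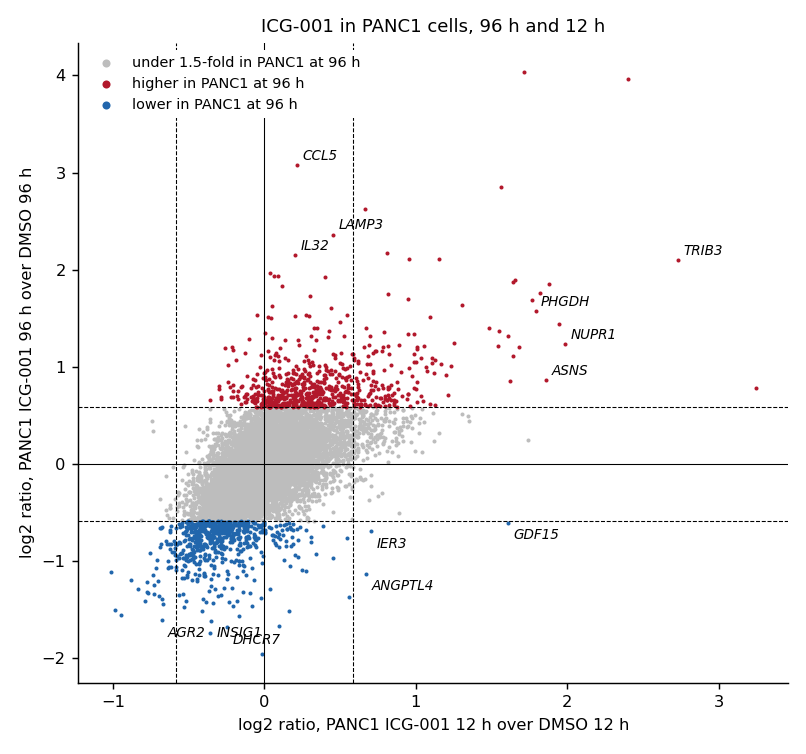
Log2 ratio at 96 h against that at 12 h for ICG-001 over DMSO in PANC1 cells, 1 point per row kept at 96 h; dashed lines mark 1.5-fold. TRIB3, NUPR1 and ASNS lie far right and high, CCL5 and IL32 lie near 0 at 12 h, and GDF15 lies to the lower right at 1.61 and -0.61.

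In HCT116 cells given ICG-001 for 96 h, 878 rows rose (5.41%) and 874 fell (5.38%). Rows that rose in both lines numbered 216, 32.4% of the PANC1 list and 24.6% of the HCT116 list, and 240 fell in both, 38.9% and 27.5%. Another 28 passed in opposite directions, 11 of them higher in PANC1. Across 14671 rows kept in both lines Pearson's r was 0.49 and Spearman's rho 0.44, with rows again not independent. The ATF4 regulators had a median of 0.94 in HCT116 and the synthesis enzymes 0.50, beside 0.69 and 0.76 in PANC1. The early cholesterol list was at -1.06 in HCT116 and the late list at -0.32, beside -0.73 and -0.82. IDI1 and INSIG1 were lower in HCT116 (-2.26 and -2.50) than in PANC1 (-1.19 and -1.61), while EBP was at -0.35 in HCT116. Of the immune genes, LAMP3 and IRF1 also rose in HCT116, by 1.59 and 0.90. The median of MHC class I presentation there was 0.082 with 0 genes past 1.5-fold, and CCL5, IL32, HLA-B and EBI3 were at 0.056, -0.014, -0.057 and -0.15. DKK1 fell in both lines, by 0.73 in PANC1 and to a log2 ratio of -2.27 in HCT116, TCF7L2 was at -1.34 and CDKN1A at 1.12 in HCT116. In all 3 ICG-001 comparisons, 89 rows rose and 30 fell. The difference between lines was not tested.

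**Figure D5:**
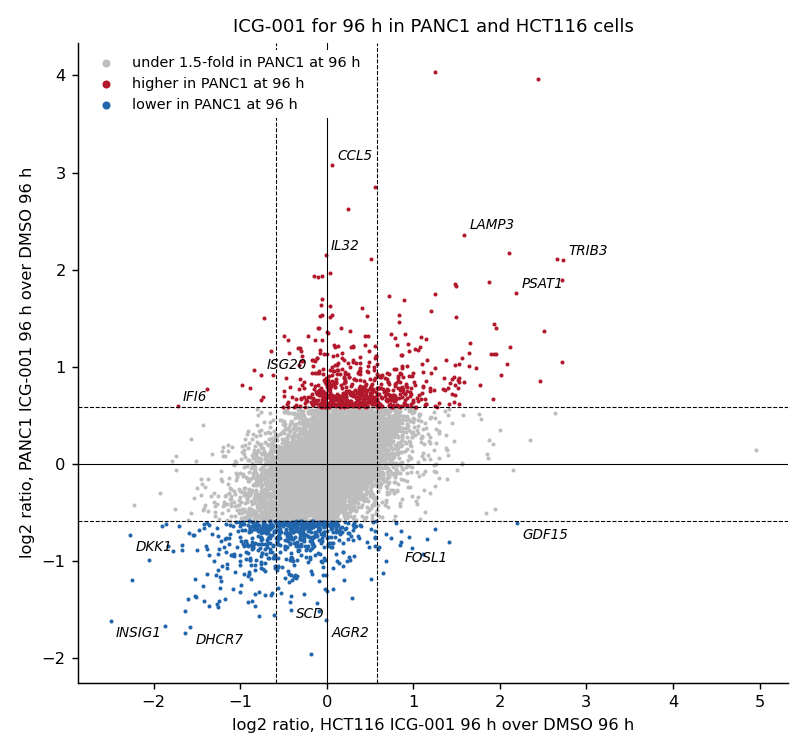
Log2 ratio of ICG-001 over DMSO at 96 h in PANC1 against that in HCT116 cells, 1 point per row kept in PANC1; dashed lines mark 1.5-fold. TRIB3, PSAT1 and LAMP3 are high and INSIG1 and DHCR7 low in both lines, CCL5 and IL32 are near 0 in HCT116, and GDF15 and FOSL1 have opposite signs.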

How the data were processed

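The deposited table gives signal intensity, not logged, with 1 value per gene row and group. The authors made it in GenomeStudio (also named in the submitters' processing notes) by quantile normalization, left background in, and averaged the arrays of a group. Groups came from the labels, 0 columns lacked a sample, and values or detection calls of single arrays were not used here. The number of arrays limits the precision.

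Signals were converted to log2 and subtracted. Row names were matched to RefSeq genes (GRCh38.p14): 17755 by symbol, 3305 by an older symbol and 2669 by gene identifier, while 144 matched several genes and 10814 none. Named were the 15 highest and 15 lowest protein-coding rows, the 3 largest members of each list either way, every other list member past 1.5-fold, a few others where a comparison needed them, and 12 genes of the WNT model and cell cycle. The members and the 43 lists were chosen with earlier results of these data known, and 2 lists were written after the values were seen. Alternatives were fold thresholds of 1.2 and 2, no detection limit or one at 5 SD, normexp background correction (offset 16), quantile normalization over 12 columns, centring, and other control columns. A few named genes are left out here. The counting procedure was tested on simulated data, with 2-fold changes planted in bright rows and the small noise of dim rows. That checks the counting only and not the error of the real ratios. Promoter sequences are RefSeq's; genes with several starts counted once. Software was R 4.3.3 with limma 3.58.1, and Python 3.11.15 with the packages pandas 2.3.3, numpy 2.4.6, matplotlib 3.10.9 and scipy 1.17.1.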

Additional observations from a re-analysis of the deposited data

Results flagged for a closer look

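Among the genes named in the text, 6 passed 1.5-fold after 96 h of ICG-001 in both cell lines but in opposite directions. The difference between lines was not tested, since each group has 1 column. FOSL1 was at -0.84 in PANC1 and 0.84 in HCT116, SLC2A1 at -0.76 and 0.74, IER3 at -0.69 and 0.86, and GDF15 at -0.61 and 2.19. In the other direction, IFI6 was at 0.59 in PANC1 and -1.72 in HCT116, and ISG20 at 0.92 and -0.76. In PANC1 the GDF15, IER3 and SLC2A1 signals of DMSO at 96 h were above those of DMSO at 12 h by 1.41, 0.65 and 0.37 on the log2 scale.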

How the results depend on the processing

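No paired analysis was possible because each group has 1 column of values. Quantile normalization over 12 columns, centring, no detection limit and a limit at 5 SD left every count within 1.5 times its value and the medians of both cholesterol lists, the cytosolic synthetases and G2/M near theirs. Counts moved with the fold threshold. At 1.2-fold, 2458 rows rose and 2616 fell, 1804 passed at both times, 2331 in both lines, and 1529 lay outside the range of the other 5 columns. At 2-fold these counts were 132, 100, 32, 66 and 36. With normexp background correction at 1.5-fold they were 1484, 1433, 497, 933 and 615, and the cholesterol medians became -0.97 (early) and -0.94 (late). With DMSO 12 h as the control, 1144 rows rose and 367 passed at both times, which then share that column. The medians became -0.58 and -0.67 for early and late cholesterol, 0.31 for the cytosolic synthetases and -0.55 for G2/M. With the mean of both DMSO columns they were -0.65, -0.75 and 0.21 for the first 3 of these. Signs turned for the hypoxia median (0.17), CDKN1B (0.12), GDF15 (0.80) and JUN (0.34) with DMSO 12 h, and for GDF15 (0.098) and JUN (0.091) with the mean. Against C646 96 h, a control chosen after seeing the data, signs turned for AARS2 (-0.082), BCL2L1 (0.43), BIRC5 (-0.21), CARS1 (-0.041), CDKN1A (-0.12), COL1A1 (-0.40), EIF2AK4 (-0.54), EP300 (0.17), FOSL1 (0.47), GDF15 (0.39), HSD17B7 (-1.0), HYOU1 (0.28), IGFBP4 (0.61), ITGA5 (-0.25), JUN (0.65) and RNA18SN5 (-0.44). Of 199 named genes past 1.5-fold, 198 stayed past it in the same direction with centring (not UQCRC2), 198 with normexp (not MT1E), 196 with quantile normalization over 12 columns (not ACSS2, EIF2AK4 and PSPH), 184 with the mean of DMSO, 167 with DMSO 12 h and 136 with C646 96 h. Signal over background limits what dim rows can show: among 15380 rows under the limit in all 6 PANC1 columns the SD of the log2 ratio was 0.0697 and 0 passed 1.5-fold. The cause of these shifts was not tested.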

Other observations

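The largest rise of all kept rows was that of 28S ribosomal RNA. Its row (RNA28SN5, named LOC100008589 on the array) read 134 and 173 in DMSO at 12 and 96 h, 509 and 1418 in C646, 438 in ICG-001 at 12 h and 2841 in ICG-001 at 96 h, a log2 ratio of 4.04. LOC100132564, which matched no RefSeq gene, read 123 and 175 in DMSO at 12 and 96 h, 547 and 922 in C646, 649 in ICG-001 at 12 h and 2716 in ICG-001 at 96 h, and LOC100132394 read 147 and 222 in DMSO at 12 and 96 h, 623 and 1241 in C646, 433 in ICG-001 at 12 h and 1598 in ICG-001 at 96 h. In these 3 rows every drug column exceeded both DMSO columns. The 18S row RNA18SN5 had 141 and 732 in DMSO at 12 and 96 h, 1109 and 1702 in C646, 1340.3 in ICG-001 at 12 h and 1257 in ICG-001 at 96 h and the 5S row RNA5S9 654 and 418 in DMSO at 12 and 96 h, 499 and 464 in C646, 530.4 in ICG-001 at 12 h and 727 in ICG-001 at 96 h, with log2 ratios of 0.78 and 0.80, and RNA5S9 was at 0.15 against DMSO at 12 h. The part of ribosomal RNA in the other results was not tested.

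Rows of pseudogenes fell more often than they rose. Of 1109 kept pseudogene rows 69 fell (6.22%) and 27 rose (2.43%), against 3.96% and 4.51% of protein-coding rows. Copies of PPIA fell in 8 of 11 rows, of RPS27 in 6 of 8, of KRT18 in 6 of 7, of RPL26 in 3 of 8 and of KRT8 in 3 of 4. The parent rows were at -0.76 for PPIA, -0.27 for RPS27, -0.53 for KRT18, -0.44 for RPL26 and -1.06 for KRT8. Copies of other genes went the other way, rising in 6 of 8 rows for FTH1, 3 of 15 for RPS2 and 3 of 14 for RPSA. Their parent rows were at 0.67, 0.37 and 0.10. Pseudogene copies can be near-identical to their parents, so probes may read RNA of either. In HCT116, 5 rows of KRT18 copies were past 1.5-fold higher while they were lower in PANC1.

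Among 346 kept long noncoding RNAs 12 rose (3.47%, all kept rows 3.86%) and 5 fell (1.45%, all kept rows 3.57%). Several hosts of small nucleolar RNAs rose: SNHG32 by 0.99, SNHG17 by 0.84, SNHG29 by 0.77, SNHG15 by 0.74 and ZFAS1 by 0.60, while SNHG9 fell by 1.41. Both rows of another host, SNHG5, were under 1.5-fold, at 0.25 and 0.28. Against DMSO at 12 h, SNHG17, SNHG15 and ZFAS1 were under 1.5-fold, at 0.50, 0.40 and 0.18. TYMSOS, antisense to the thymidylate synthase gene, fell by 1.74, and it overlaps that gene, so a probe's signal may not be from 1 of them alone. These genes were chosen after their values were seen.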
